A study of Mus musculus with 36 samples.

Results

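Antigen-presenting cells give T cells more than antigen. Surface proteins such as CD80 and CD86 engage CD28 and supply costimulation, while PD-L1 and PD-L2 engage the checkpoint receptor PD-1 and restrain the T cell. CD40 works in the other direction, since it is a receptor on the macrophage that binds CD40 ligand on helper T cells. Lipopolysaccharide (LPS), a bacterial cell wall product sensed by Toll-like receptor 4, is known to raise many of these proteins on macrophages. The genes described here are 10 named T cell costimulatory and checkpoint genes, Cd80, Cd86, Icosl, Cd40, Tnfsf9, Cd274, Pdcd1lg2, Cd83, Cd69 and Slamf7, out of 54232 gene identifiers counted. They were chosen by name, each symbol belonged to 1 identifier, and all 10 were among the 12957 genes that passed the filter on low counts. Pdcd1lg2 passed it through its counts at 8 h of LPS. Most encode ligands of T cell receptors, whereas CD40 and CD69 are themselves receptors and CD83 and SLAMF7 are surface proteins with further roles.

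The 36 libraries hold RNA of BMDM, macrophages grown from mouse bone marrow for 5 days with 20 ng/mL of the macrophage growth factor MCSF. The groups are NOS1 KO cells without LPS, with 100 ng/mL LPS for 2 h and with 100 ng/mL LPS for 8 h, and WT cells (written C65BL6 in the design text) under the same treatments, with 6 libraries in each. The labels do not describe the deleted part of Nos1, the age or number of mice, or whether separate cultures stand behind the libraries, so the p-values measure only the spread from library to library, which may be technical. Nos1 counts went against the labels. Controls that carry the KO label averaged 4.16 ± 1.04 CPM, and those that carry the WT label 0.065 ± 0.0988 CPM (SD, n = 6 each; edgeR adjusted p = 9.19e-08). Counts per gene do not show which exons were read, so the groups are called KO-labelled and WT-labelled throughout.

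Library totals ran from 8953489 to 18482551 counts. In every group, the libraries were split into 2 unlabelled sets of 3 by the main axis of spread within groups, over all tested genes. Replicates 1, 2 and 6 form set A here, and replicates 3, 4 and 5 form set B. Set A was loose. By mean chi-square per gene, larger for a larger difference, KO-labelled control replicate 2 was at 32.6 from replicate 1 but 23.6 to 24.8 from set B. WT-labelled 2 h replicate 2 was at 47.9 from replicate 1 but 25.8 to 26.7 from set B. All 10 macrophage markers were counted in every group and summed to between 13300 and 23000 CPM. Of 13 T and NK cell markers, Cd3e and Ncr1 were at 0 in all groups, while Cd4 (3543 counts over all libraries), Lck (1591) and Cd247 (894) held most of the counts. Skeletal muscle markers summed to over 100 CPM in 4 WT-labelled libraries, replicates 5 and 6 at 2 h and at 8 h. Levels are given in CPM, which is counts per 1000000 counts of the TMM-scaled library size. A gene was called where its edgeR quasi-likelihood p, adjusted by Benjamini-Hochberg over all 12957 tested genes, was below 0.05.

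LPS raised nearly all of these transcripts within 2 h. In KO-labelled libraries 9 of 10 were called higher at 2 h against control, where 18.9% of all tested genes were called higher, and in WT-labelled libraries 9 of 10 were, where 20.3% of all tested genes were. Pdcd1lg2, which encodes PD-L2, was the exception in both. No gene of the 10 was called lower against control, where 16.4% of all tested genes were at 2 h and 37.2% at 8 h in KO-labelled libraries, and 17.7% and 37% in WT-labelled ones. At 8 h against control 10 of 10 were called higher in KO-labelled libraries (34.9% of all tested genes) and 10 of 10 in WT-labelled libraries (34.2% of all tested genes). Among them, Pdcd1lg2 passed the filter on low counts only through its 8 h counts, so its 8 h call adds no support. The median log2 fold change of the 10 genes was 3.08 at 2 h and 4.90 at 8 h in KO-labelled libraries, where the medians of all tested genes were -0.01 and -0.06. In WT-labelled libraries it was 3.42 at 2 h and 4.83 at 8 h, where the medians of all tested genes were -0.02 and -0.06. Every one of these calls was also made by DESeq2. In bulk RNA, fewer cells with a transcript and less of it per cell cannot be told apart.

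Markers of other cell types also moved with LPS. The sum of the 11 dendritic cell markers was 3.07 to 6.64 CPM in controls, 8.22 to 19.2 CPM at 2 h and 13.4 to 62.4 CPM at 8 h in KO-labelled libraries, and 2.71 to 5.76, 9.32 to 20.6 and 14.1 to 46.8 CPM in WT-labelled ones at the same times. The 13 T and NK cell markers summed to 5.58 to 11.1, 7.62 to 17.1 and 18.4 to 31.6 CPM in KO-labelled libraries, and to 4.22 to 12.1, 5.7 to 16.2 and 19.2 to 28.3 CPM in WT-labelled ones. Of the 3 that passed the filter on low counts, 2 were called higher at 8 h under each label. The median sum of the 9 stromal markers was 18.5, 20.7 and 40.5 CPM in KO-labelled and 37.7, 38.4 and 66.5 CPM in WT-labelled libraries, and that of the 9 neutrophil markers 75.1, 143 and 95.1 CPM in KO-labelled and 101, 183 and 131 CPM in WT-labelled libraries. The part of these markers in the LPS results was not tested.

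The genes then parted between 2 h and 8 h. Cd40, Cd86, Cd274, Pdcd1lg2, Cd69 and Slamf7 were called higher at 8 h than at 2 h under both labels, so 6 of 10 were higher where 31.5% of all tested genes were higher in KO-labelled and 30% in WT-labelled libraries. Of these 6, Pdcd1lg2 was tested only because of its 8 h counts. Tnfsf9 and Cd83 were called lower at 8 h than at 2 h under both labels. Icosl was called lower in KO-labelled libraries and Cd80 in WT-labelled ones, which makes 3 of 10 lower under each label where 33.7% and 32.8% of all tested genes were lower. Neither Cd80 nor Icosl was called under both labels, and the difference between labels in the change from 2 h to 8 h was not tested.

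**Figure D1:**
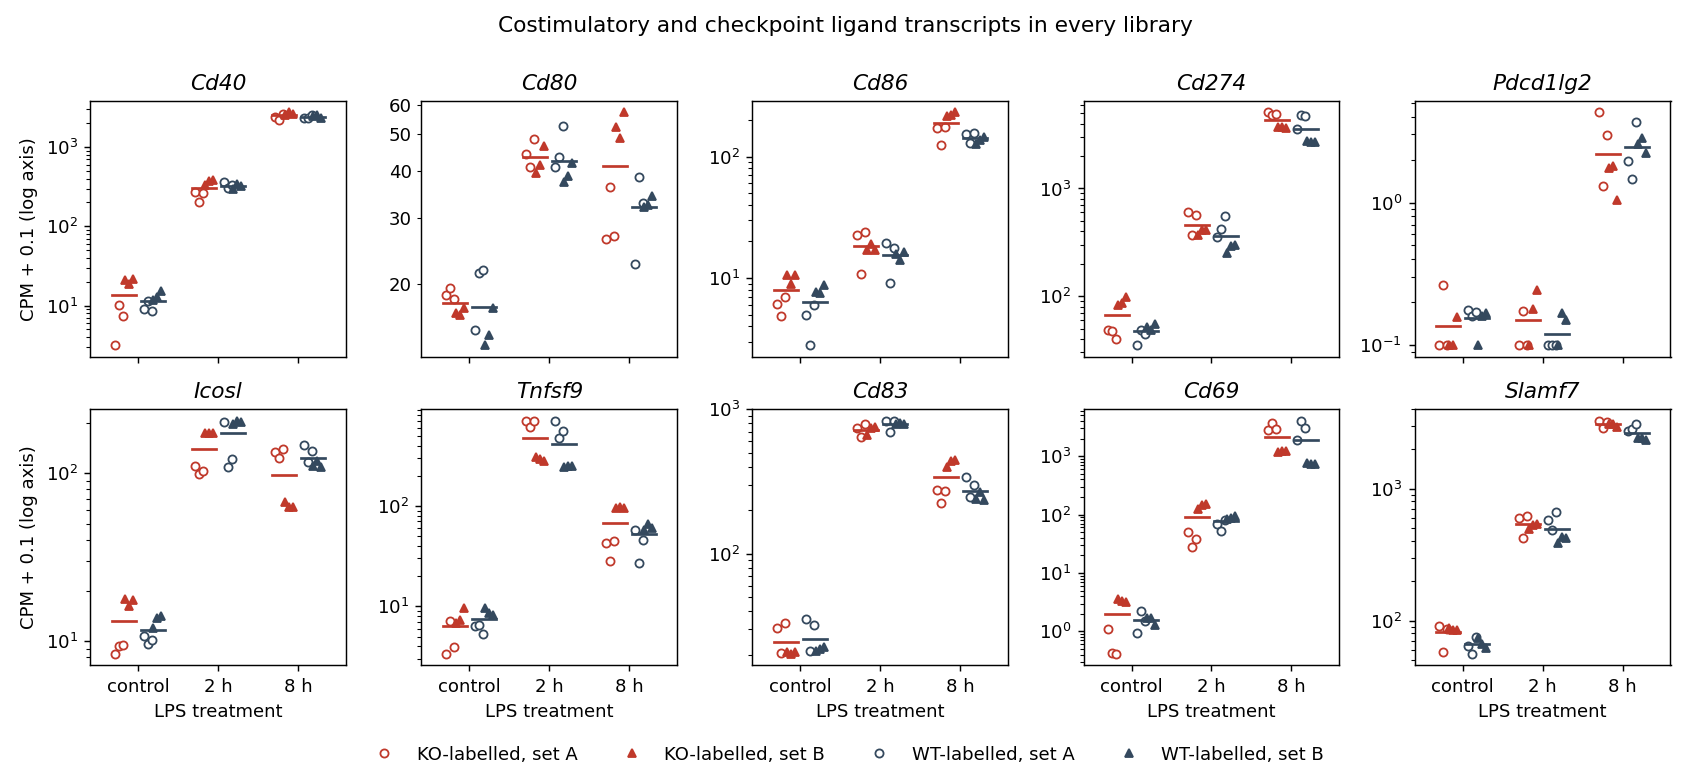
CPM plus 0.1 (log axis) of each gene in each of the 36 libraries, by treatment, with KO-labelled libraries in red to the left of WT-labelled ones in dark blue, open circles for set A, triangles for set B, and a bar at the group mean. Cd40, Cd274, Cd69 and Slamf7 climb at both times, Tnfsf9 peaks at 2 h, and Pdcd1lg2 leaves the floor only at 8 h.

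The B7 ligands of CD28 and its relatives differed in size and timing of response. Cd80 (B7-1, a ligand of CD28 and of the inhibitory receptor CTLA-4; mm10 chromosome 16, 38455561 to 38496335, plus strand) had its lowest, median and highest values in KO-labelled libraries at 16.5, 17.7 and 19.5 CPM in controls, 39.5, 42.8 and 48.5 CPM at 2 h, and 26.3, 42.5 and 57.2 CPM at 8 h. The WT-labelled values were 13.7, 16.1 and 21.8 CPM in controls, 37.2, 41.4 and 52.7 CPM at 2 h, and 22.6, 32.6 and 38.5 CPM at 8 h. Every LPS library of a label stood above every control of that label, and the 2 h and 8 h libraries overlapped. In KO-labelled libraries the 8 h values parted by set, with 26.3 to 36.1 CPM for set A but 48.9 to 57.2 CPM for set B. The KO-labelled log2 fold change at 8 h against 2 h was -0.58 in set A alone but 0.31 in set B alone (edgeR adjusted p = 0.00911 and 0.00125). The log2 fold change against control was 1.29 ± 0.15 at 2 h and 1.21 ± 0.15 at 8 h in KO-labelled libraries (SE; edgeR adjusted p = 1.68e-08 and 1.42e-08). In WT-labelled libraries it was 1.29 ± 0.15 at 2 h and 0.89 ± 0.15 at 8 h (SE; edgeR adjusted p = 1.39e-08 and 4.65e-06). The 8 h rise was the smallest of the 10 genes, and with library totals alone as the scale it was 0.40 in KO-labelled libraries and 0.12 in WT-labelled ones, no longer called (edgeR adjusted p = 0.486). Cd80 at 8 h against 2 h was -0.41 ± 0.15 in WT-labelled libraries (SE; edgeR adjusted p = 0.0196), a call lost without the 4 libraries with muscle markers (-0.35, edgeR adjusted p = 0.116) and without WT-labelled 8 h replicate 1 (-0.32, edgeR adjusted p = 0.0669) or WT-labelled 2 h replicate 6 (-0.33, edgeR adjusted p = 0.0611).

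Cd86 (B7-2, the other ligand of CD28 and CTLA-4; mm10 chromosome 16, 36603869 to 36666081, minus strand) rose late. Its lowest, median and highest values in KO-labelled libraries were 4.76, 7.90 and 10.5 CPM in controls, 10.8, 18.1 and 23.8 CPM at 2 h, and 124, 196 and 231 CPM at 8 h. Under the WT label they were 2.71, 6.64 and 8.69 CPM in controls, 9.02, 16.0 and 19.5 CPM at 2 h, and 127, 141 and 155 CPM at 8 h. No library of one time overlapped with those of another time within a label. The log2 fold change against control was 1.20 ± 0.22 at 2 h and 4.57 ± 0.24 at 8 h in KO-labelled libraries (SE; edgeR adjusted p = 3.35e-05 and 2.84e-18), and 1.32 ± 0.22 at 2 h and 4.51 ± 0.24 at 8 h in WT-labelled libraries (SE; edgeR adjusted p = 9.43e-06 and 4.73e-18). Thus Cd80 and Cd86, which share their receptors, had like responses at 2 h. At 8 h Cd86 stood far above its 2 h level and Cd80 did not, with sets that went opposite ways under the KO label.

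Icosl (the ligand of the T cell receptor ICOS; mm10 chromosome 10, 78069302 to 78083913, plus strand) rose early and at 8 h was still above control. In KO-labelled libraries its lowest, median and highest values were 8.33, 12.7 and 17.8 CPM in controls, 99.3, 141 and 173 CPM at 2 h, and 62.7, 95.4 and 139 CPM at 8 h. Under the WT label the values were 9.53, 11.2 and 14.0 CPM in controls, 108, 199 and 205 CPM at 2 h, and 109, 117 and 147 CPM at 8 h. All LPS libraries were above all controls, and 2 h and 8 h libraries overlapped. Log2 fold changes against control were 3.40 ± 0.24 at 2 h and 2.90 ± 0.24 at 8 h in KO-labelled libraries (SE; edgeR adjusted p = 9.06e-14 and 6.81e-13). They were 3.89 ± 0.25 and 3.40 ± 0.24 at 2 h and 8 h in WT-labelled libraries (SE; edgeR adjusted p = 3.79e-15 and 2.05e-14). Between 2 h and 8 h the change was -0.50 in KO-labelled libraries (edgeR adjusted p = 0.0463) and -0.49 in WT-labelled libraries (edgeR adjusted p = 0.0504), nearly the same value on either side of the threshold. The sets moved apart, the log2 fold change at 8 h against 2 h being 0.32 for set A but -1.43 for set B in KO-labelled libraries, and -0.13 for set A but -0.86 for set B in WT-labelled ones. It was called higher in KO-labelled set A and lower in set B under both labels (edgeR adjusted p = 0.0247, 1.93e-11 and 3.91e-07), and in WT-labelled set A it was not called (0.355). The sets were drawn from these same counts, so these p-values are descriptions.

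Of the tumour necrosis factor superfamily pair, Cd40 rose by 2 h and further by 8 h, while Tnfsf9 was highest at 2 h. Cd40 (the receptor for CD40 ligand, a TNF receptor family member; mm10 chromosome 2, 165055627 to 165072948, plus strand) had a lowest, median and highest value in KO-labelled libraries of 3.07, 14.4 and 21.4 CPM in controls, 200, 304 and 380 CPM at 2 h, and 2180, 2560 and 2760 CPM at 8 h. For WT-labelled libraries these were 8.40, 11.6 and 15.1 CPM in controls, 300, 329 and 360 CPM at 2 h, and 2300, 2410 and 2580 CPM at 8 h. The times did not overlap within either label, and the WT-labelled range lay inside the KO-labelled range at each time. Log2 fold changes against control were 4.48 ± 0.27 at 2 h and 7.53 ± 0.31 at 8 h in KO-labelled libraries (SE; edgeR adjusted p = 1.09e-15 and 6.92e-21). The matching WT-labelled values were 4.84 ± 0.28 at 2 h and 7.73 ± 0.32 at 8 h (SE; edgeR adjusted p = 2.09e-16 and 4.64e-21).

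Tnfsf9 (4-1BB ligand, which costimulates T cells through 4-1BB; mm10 chromosome 17, 57105325 to 57107757, plus strand) peaked at 2 h. The lowest, median and highest values in KO-labelled libraries were 3.28, 6.87 and 9.56 CPM in controls, 277, 456 and 705 CPM at 2 h, and 28.4, 69.6 and 96.5 CPM at 8 h. WT-labelled libraries held 5.21, 7.24 and 9.51 CPM in controls, 244, 365.2 and 707 CPM at 2 h, and 26.9, 57.4 and 66.5 CPM at 8 h. The 2 h libraries lay above all 8 h libraries and these above all controls. Against control, Tnfsf9 was higher by a log2 fold change of 6.25 ± 0.40 at 2 h and 3.41 ± 0.36 at 8 h in KO-labelled libraries (SE; edgeR adjusted p = 3.91e-15 and 2.31e-10). In WT-labelled libraries the values were 5.82 ± 0.39 and 2.84 ± 0.35 at 2 h and 8 h (SE; edgeR adjusted p = 1.39e-14 and 7.97e-09). Its log2 fold change at 8 h against 2 h was -2.84 ± 0.33 in KO-labelled libraries and -2.98 ± 0.34 in WT-labelled ones (SE; edgeR adjusted p = 4.34e-09 and 2.03e-09). At 2 h the wide range followed the sets, with 608 to 705 CPM for set A but 277 to 305 CPM for set B of the KO-labelled libraries, and 479 to 707 CPM for set A but 244 to 251.0 CPM for set B of the WT-labelled ones. The order was the other way at 8 h. KO-labelled libraries then held 28.4 to 44.3 CPM for set A but 94.9 to 96.5 CPM for set B. WT-labelled ones held 26.9 to 57 CPM for set A but 57.9 to 66.5 CPM for set B. The fall from 2 h to 8 h was thus larger in set A under both labels. Tnfsf9 overlaps exons of Gm11110 on the other strand, which held 1430 counts over all libraries against 76628 for Tnfsf9, and the strand setting of the counting is not given in the sources used here.

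The genes of the PD-1 ligands lie next to each other on chromosome 19, both on the plus strand, and were read at very different levels. Cd274 (PD-L1; mm10 29367455 to 29388095) was among the most abundant of the 10 genes, and Pdcd1lg2 (PD-L2; mm10 29410919 to 29471161) was the scarcest. The stretches around their starts are printed because they differ in the motifs found. Promoter sequences, credited to RefSeq on GRCm38.p6, were given for 5 of the 10 genes (Cd274, Pdcd1lg2, Cd80, Icosl and Slamf7) and run from 250 bases before to 50 bases after the start. Both strands were searched for a kappa-B consensus (bound by NF-kB), the ISRE core and a GAS element TTCNNNGAA (bound by interferon-activated factors), AP-1 TGANTCA and a PU.1 core GAGGAA. Of 32851 promoters of this length in the table, 4.51% held the kappa-B consensus, 3.44% the ISRE core, 8.3% the GAS element, 7.81% AP-1 and 28.3% the PU.1 core.
Cd274, chr19:29367188-29367487, plus strand: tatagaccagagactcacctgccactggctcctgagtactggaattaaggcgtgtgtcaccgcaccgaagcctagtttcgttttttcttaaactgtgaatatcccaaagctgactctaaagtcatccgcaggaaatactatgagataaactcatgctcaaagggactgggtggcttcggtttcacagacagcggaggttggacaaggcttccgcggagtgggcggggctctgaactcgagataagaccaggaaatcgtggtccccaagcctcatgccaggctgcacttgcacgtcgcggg
Pdcd1lg2, chr19:29410669-29410968, plus strand: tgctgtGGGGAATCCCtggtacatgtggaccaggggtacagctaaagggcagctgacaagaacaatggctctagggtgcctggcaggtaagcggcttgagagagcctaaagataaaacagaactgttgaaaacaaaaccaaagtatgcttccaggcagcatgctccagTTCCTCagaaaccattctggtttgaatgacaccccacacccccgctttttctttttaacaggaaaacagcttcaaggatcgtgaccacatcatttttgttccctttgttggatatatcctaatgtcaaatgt
Capitals mark motif matches. The Pdcd1lg2 window held a kappa-B match at positions -244 to -235 from the start and a PU.1 core, read on the opposite strand, at -82 to -77, with no overlap between them. None of the 5 motifs was found in the Cd274 and Icosl windows, which says only that these letters are not in those 300 bases.

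Cd274 had its lowest, median and highest values in KO-labelled libraries at 39.6, 65.3 and 98.6 CPM in controls, 367.8, 412 and 598 CPM at 2 h, and 3680, 4260 and 5110 CPM at 8 h. The WT-labelled libraries stood at 35.0, 48.8 and 54.9 CPM in controls, 250.9, 327 and 559 CPM at 2 h, and 2710, 3150 and 4790 CPM at 8 h. The times did not overlap under either label. The log2 fold change of Cd274 against control was 2.76 ± 0.22 at 2 h and 6.01 ± 0.26 at 8 h in KO-labelled libraries (SE; edgeR adjusted p = 1.66e-12 and 1.53e-20). In WT-labelled libraries it was 2.94 ± 0.22 at 2 h and 6.23 ± 0.26 at 8 h (SE; edgeR adjusted p = 3.69e-13 and 7.91e-21). An antisense gene with overlapping exons, AC119228.1, is annotated at Cd274 but is not among the identifiers counted, so its reads cannot be told apart from those of Cd274.

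Pdcd1lg2 was close to absent until 8 h. In KO-labelled libraries its lowest, median and highest values were 0, 0 and 0.164 CPM in controls, 0, 0.0374 and 0.143 CPM at 2 h, and 0.935, 1.68 and 4.20 CPM at 8 h. Under the WT label these were 0, 0.0638 and 0.0752 CPM in controls, 0, 0 and 0.0691 CPM at 2 h, and 1.36, 2.30 and 3.56 CPM at 8 h. Its total counts were 3, 4 and 121 in KO-labelled libraries and 5, 2 and 131 in WT-labelled libraries, each in the order control, 2 h and 8 h. All 8 h libraries lay above all others. The ratio of 8 h to control, per scaled library size, was 61.1 in KO-labelled libraries (exact 95% interval 20.4 to 300) and 41.2 in WT-labelled libraries (exact 95% interval 17.2 to 129), intervals that cover counting error only. The fitted log2 fold change at 8 h was 5.57 ± 0.55 in KO-labelled libraries and 5.14 ± 0.51 in WT-labelled ones (SE; edgeR adjusted p = 4.73e-11 and 5.80e-11). Without KO-labelled control replicate 2, which held 2 of the 3 counts of its group, the KO-labelled value was 6.51. A change at 2 h was not detectable at this depth (edgeR adjusted p = 0.686 in KO-labelled and 0.398 in WT-labelled libraries). The antisense gene A930007I19Rik, whose exons do not overlap those of Pdcd1lg2, had more counts (1538 against 266 over all libraries) and was itself high at 8 h. It averaged 11.1 ± 4.52 CPM at 8 h and 0.988 ± 0.394 CPM in controls under the KO label, and 9.20 ± 1.95 CPM at 8 h and 1.18 ± 0.669 CPM in controls under the WT label (SD, n = 6 each).

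Among the activation antigens, Cd83 (a surface protein that stabilises MHC class II and CD86; mm10 chromosome 13, 43784775 to 43803132, plus strand) followed the early pattern. Its lowest, median and highest values were 20.3, 20.8 and 33.3 CPM in controls, 637, 736 and 794 CPM at 2 h, and 225, 336 and 442 CPM at 8 h in KO-labelled libraries. For WT-labelled libraries they were 21.1, 22.3 and 35.2 CPM in controls, 697, 799 and 832 CPM at 2 h, and 235, 258 and 340 CPM at 8 h. No 2 h library overlapped with an 8 h library of its label. Cd83 was higher than control by a log2 fold change of 4.89 ± 0.18 at 2 h and 3.81 ± 0.17 at 8 h in KO-labelled libraries (SE; edgeR adjusted p = 1.10e-21 and 7.58e-20). It was higher by 4.94 ± 0.18 and 3.40 ± 0.17 at 2 h and 8 h in WT-labelled libraries (SE; edgeR adjusted p = 8.05e-22 and 1.02e-18). At 8 h against 2 h its log2 fold change was -1.08 ± 0.15 in KO-labelled libraries and -1.54 ± 0.16 in WT-labelled ones (SE; edgeR adjusted p = 2.09e-07 and 1.75e-10).

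Cd69 (an early activation antigen of lymphocytes that holds the receptor S1PR1 inside the cell; mm10 chromosome 6, 129267325 to 129275436, minus strand) had the largest fold change of the 10 genes at 8 h. In KO-labelled libraries its lowest, median and highest values were 0.317, 2.06 and 3.42 CPM in controls, 27.2, 88.1 and 150 CPM at 2 h, and 1180, 2030 and 3660 CPM at 8 h. The values under the WT label were 0.827, 1.5 and 2.11 CPM in controls, 52.9, 82.5 and 93.3 CPM at 2 h, and 737, 1330 and 4040 CPM at 8 h. The times did not overlap. The log2 fold change against control was 5.50 ± 0.57 at 2 h and 10.09 ± 0.66 at 8 h in KO-labelled libraries (SE; edgeR adjusted p = 7.20e-10 and 1.82e-15), and 5.71 ± 0.58 at 2 h and 10.29 ± 0.67 at 8 h in WT-labelled libraries (SE; edgeR adjusted p = 4.96e-10 and 1.74e-15). Much of its spread at 8 h lay between the sets. In KO-labelled 8 h libraries Cd69 stood at 2810, 3660 and 2890 CPM in set A and 1180, 1200 and 1240 CPM in set B, and in WT-labelled 8 h libraries at 1900, 4040 and 2980 CPM in set A and 764, 737 and 746 CPM in set B. Its log2 fold change at 8 h against control, under the KO label, was 12.36 for set A but 8.54 for set B. Under the WT label it was 10.95 for set A but 8.96 for set B. These values also rest on scarce controls, which differed between the sets under the KO label. KO-labelled controls averaged 0.556 CPM for set A but 3.24 CPM for set B, with 4 counts in the lowest library. WT-labelled controls averaged 1.44 CPM for set A and 1.48 CPM for set B, with 11 counts in the lowest library.

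Slamf7 (a SLAM family receptor that binds its own kind on neighbouring cells; mm10 chromosome 1, 171632403 to 171653035, minus strand) rose in even steps. Its lowest, median and highest values were 57.9, 85.6 and 90.9 CPM in controls, 424, 536 and 624 CPM at 2 h, and 2860, 3080 and 3270 CPM at 8 h in KO-labelled libraries. WT-labelled libraries stood at 56.2, 65.2 and 75.7 CPM in controls, 385.8, 457 and 664 CPM at 2 h, and 2320, 2590 and 3060 CPM at 8 h. Again no times overlapped. Log2 fold changes against control were 2.70 ± 0.12 at 2 h and 5.23 ± 0.14 at 8 h in KO-labelled libraries (SE; edgeR adjusted p = 3.97e-19 and 3.77e-26) and 2.89 ± 0.12 at 2 h and 5.31 ± 0.14 at 8 h in WT-labelled libraries (SE; edgeR adjusted p = 6.71e-20 and 2.61e-26). The antisense gene Gm37787 overlaps its exons, with 1342 counts against 418372 for Slamf7 over all libraries. Slamf7 and Cd80 were the 2 of 5 genes whose start windows held an AP-1 match, in both at positions -42 to -36, and are printed for that reason with the match in capitals.
Slamf7, chr1:171648950-171649249, minus strand: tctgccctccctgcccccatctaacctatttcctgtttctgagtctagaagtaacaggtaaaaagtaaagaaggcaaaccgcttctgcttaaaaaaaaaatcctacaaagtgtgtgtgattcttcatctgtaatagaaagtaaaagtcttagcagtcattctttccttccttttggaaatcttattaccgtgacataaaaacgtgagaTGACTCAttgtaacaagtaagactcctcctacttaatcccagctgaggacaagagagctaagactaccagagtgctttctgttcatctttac
Cd80, chr16:38458683-38458982, plus strand: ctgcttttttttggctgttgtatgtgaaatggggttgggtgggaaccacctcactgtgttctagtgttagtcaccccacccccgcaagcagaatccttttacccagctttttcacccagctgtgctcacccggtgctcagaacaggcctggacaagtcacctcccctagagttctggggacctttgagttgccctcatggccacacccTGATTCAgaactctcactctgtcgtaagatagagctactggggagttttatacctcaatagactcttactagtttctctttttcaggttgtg
For these the RefSeq start differs from the start of the GENCODE gene given above. The match is a description of the letters. Its 2 holders differed in the 8 h response, with log2 fold changes in KO-labelled libraries of 5.23 for Slamf7 and 1.21 for Cd80.

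**Figure D2:**
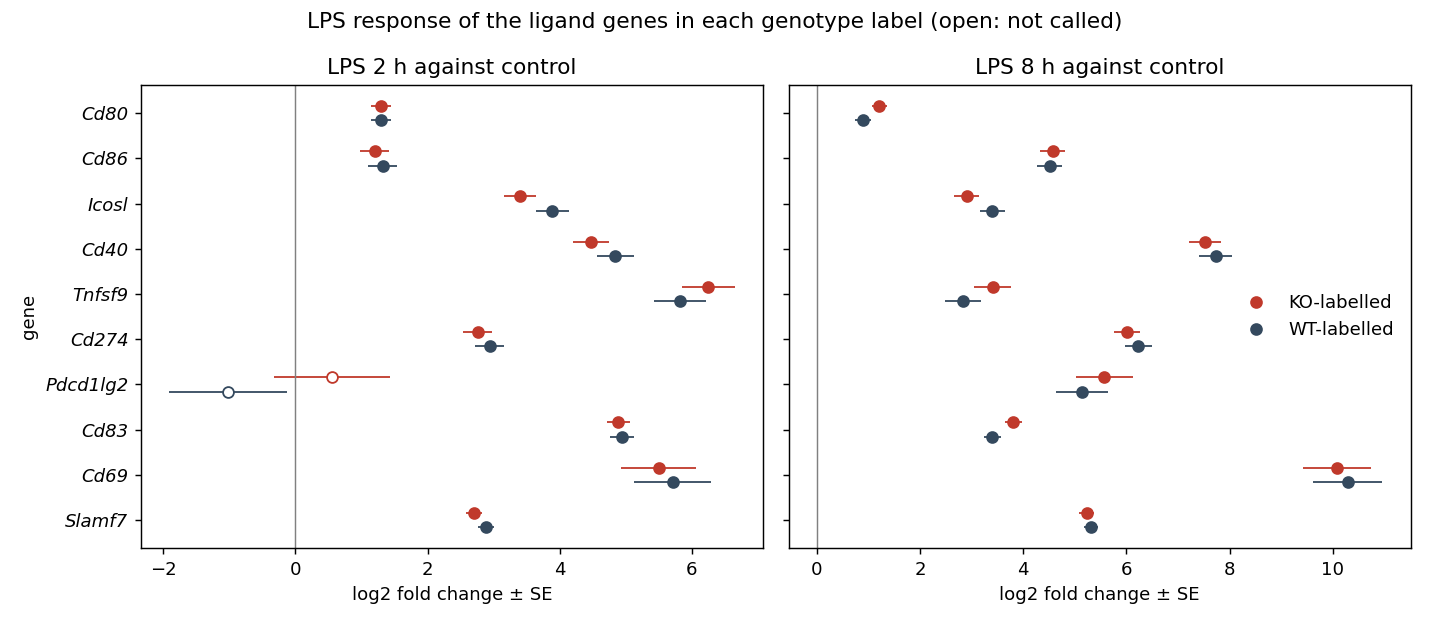
Log2 fold change with its SE for each gene at 2 h (left) and 8 h (right) of LPS against control, KO-labelled libraries in red above WT-labelled ones in dark blue, filled where called by edgeR. At 2 h all but Pdcd1lg2 are called, and at 8 h all are, from 0.89 for Cd80 in WT-labelled libraries to 10.29 for Cd69 in WT-labelled libraries.

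Scaled by the length of the annotated exons, the order of the transcripts changed with time. In controls, Cd274 and Slamf7 led with 18.5 ± 6.84 and 17.9 ± 2.62 CPM per kb in KO-labelled libraries, and with 13 ± 1.90 and 14.5 ± 1.60 CPM per kb in WT-labelled ones (SD, n = 6), levels that overlap within their spread. At 2 h, Tnfsf9 and Cd83 led, with 372.5 ± 162 and 280 ± 22.6 CPM per kb in KO-labelled libraries and 321 ± 152 and 307.5 ± 19.4 CPM per kb in WT-labelled ones (SD, n = 6), again within the spread of Tnfsf9. At 8 h, Cd274 led with 1200 ± 187 CPM per kb in KO-labelled and 976 ± 275 CPM per kb in WT-labelled libraries. Cd40 came next with 739 ± 60.0 CPM per kb in KO-labelled and 710.5 ± 37.0 CPM per kb in WT-labelled libraries (SD, n = 6), which in WT-labelled libraries is within the spread of Cd274. Slamf7 followed at 671 ± 34.4 CPM per kb in KO-labelled and 575 ± 64.1 CPM per kb in WT-labelled libraries (SD, n = 6). Pdcd1lg2 was last at every time, with 1.07 ± 0.63 CPM per kb in KO-labelled and 1.20 ± 0.389 CPM per kb in WT-labelled libraries at 8 h (SD, n = 6).

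**Figure D3:**
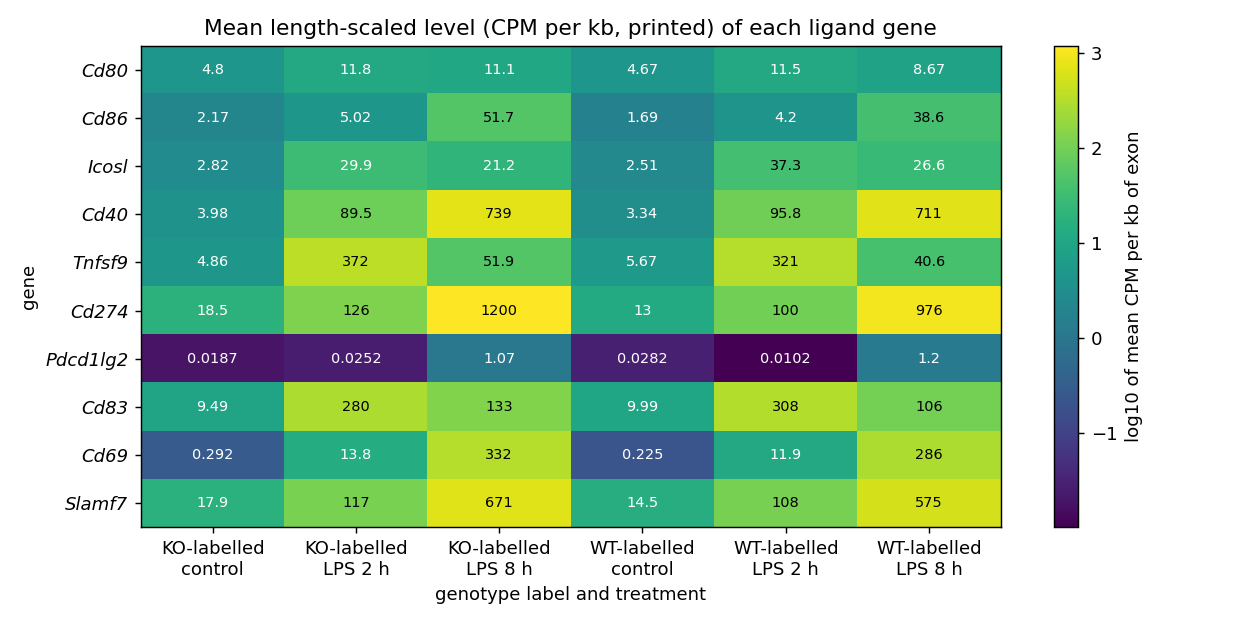
Mean level per kb of exon (colour on a log10 scale, value printed in CPM per kb) of the 10 genes in the 6 groups, with the KO-labelled groups left of the WT-labelled ones. The brightest cells move from Tnfsf9 and Cd83 at 2 h to Cd274, Cd40 and Slamf7 at 8 h, and Pdcd1lg2 stays darkest.

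Between the genotype labels none of the 10 genes was called. In controls 0 of 10 were called by edgeR, where 0.147% of all tested genes were. At an unadjusted p below 0.05 there were 2, Cd274 with a log2 fold change of 0.51 (95% interval 0.08 to 0.94) and Slamf7 with 0.31 (95% interval 0.07 to 0.54), both higher in KO-labelled controls. At 2 h 0 of 10 were called (0.0232% of all tested genes) and 0 had an unadjusted p below 0.05, where 403 of all tested genes did. At 8 h 0 of 10 were called (0.1% of all tested genes) and 3 had an unadjusted p below 0.05, where 1203 of all tested genes did. The 3 were Cd80 at 0.36 (0.06 to 0.67), Cd86 at 0.42 (0.02 to 0.83) and Cd83 at 0.33 (0.02 to 0.64). DESeq2 also called 0 of 10 at each time, with 2, 0 and 3 at an unadjusted p below 0.05 in controls, at 2 h and at 8 h. Over all tested genes its unadjusted counts were 455, 433 and 1223. The intervals bound what could have been missed. For Cd40 at 8 h the log2 difference was 0.06 (95% interval -0.42 to 0.53), for Cd274 0.29 (-0.13 to 0.71), for Slamf7 0.22 (-0.01 to 0.46) and for Cd69 0.22 (-0.67 to 1.11).

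The LPS responses did not differ between labels by test either. The interaction, which is the response of KO-labelled minus that of WT-labelled libraries, was called by edgeR for 0 of 10 genes at 2 h and 0 of 10 at 8 h, with 0 at an unadjusted p below 0.05 at either time, and the same counts by DESeq2. Over all tested genes 0% were called by edgeR at both times, and 155 at 2 h and 544 at 8 h had an unadjusted edgeR p below 0.05. At 8 h the interaction was 0.40 for Cd83 (95% interval -0.04 to 0.85), -0.50 for Icosl (-1.15 to 0.15) and 0.33 for Cd80 (-0.11 to 0.76), on the log2 scale.

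Within the sets the picture was not even. A fit with 1 mean for each group and set was run after earlier results of these data were known. The sets were drawn from the same counts that it tests, the 10 genes included. Such a split widens gaps between sets and narrows the spread within them. The adjusted p-values of this fit, here and below, are therefore descriptions and not independent tests. In set A 0 of 10 genes were called between labels in controls (0.0742% of the 13475 genes tested in that fit), 0 of 10 at 2 h (0.223%) and 0 of 10 at 8 h (0.119%), with 2, 3 and 0 at an unadjusted edgeR p below 0.05. Shares of all tested genes at an unadjusted p are not given for this fit. In set B 7 of 10 were called at 8 h, where 17.1% of all tested genes were called. Cd80, Cd86, Cd274, Tnfsf9, Cd83 and Cd69 were higher in KO-labelled libraries, so 6 of 10 where 10.7% of all tested genes were higher. Icosl was lower, so 1 of 10 where 6.43% of all tested genes were lower. Each arm held 3 libraries of a set. Set B libraries differed little from each other, with a median over pairs of the mean chi-square per gene of 3.28, against 14.7 in set A. Whether they are separate cultures is not given. The set B calls here and below are therefore not read as an effect of the label.

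The size of the LPS response also differed between the sets, which were drawn from these same counts. At 8 h against control, set B minus set A was called for 6 of 10 genes in KO-labelled libraries, where 22% of all tested genes were, and for 3 of 10 in WT-labelled libraries, where 16.6% were. Under the KO label this difference on the log2 scale was -3.83 ± 0.48 for Cd69, -1.97 ± 0.20 for Icosl, -1.46 ± 0.26 for Cd40, -1.39 ± 0.21 for Cd274, 0.98 ± 0.21 for Cd80 and 1.17 ± 0.20 for Cd83 (SE). Under the WT label it was called for Cd69 (-1.98 ± 0.48), Cd274 (-0.94 ± 0.21) and Icosl (-0.63 ± 0.20 SE), and the Cd40 value was -0.44 ± 0.25 (SE; edgeR adjusted p = 0.259). The Cd40 rise itself was 8.48 for set A but 7.01 for set B in KO-labelled libraries, and 7.95 for set A but 7.51 for set B in WT-labelled ones. Each value is relative to the controls of its own set, and those levels differed too. Under the KO label Cd40 averaged 6.85 CPM for set A but 20.3 CPM for set B in controls, against 2400 and 2630 CPM at 8 h. Cd274 averaged 45.1 CPM for set A but 88.9 CPM for set B in KO-labelled controls, against 4940 and 3720 CPM at 8 h. All 10 genes were called higher at 8 h in either set under either label.

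In set B at 8 h, Cd83 had 394.8, 436 and 442 CPM in KO-labelled libraries, against 240, 269 and 235 CPM in WT-labelled libraries. These did not overlap, and the log2 fold change was 0.78 ± 0.14 (SE; edgeR adjusted p = 1.02e-04). Cd80 had 52.1, 48.9 and 57.2 CPM in KO-labelled libraries, against 31.9, 32.4 and 34.3 CPM in WT-labelled libraries, a log2 difference of 0.69 ± 0.14 (SE; edgeR adjusted p = 8.83e-04). Icosl went the other way, with 67.3, 62.7 and 62.8 CPM in KO-labelled libraries, against 110, 119 and 109 CPM in WT-labelled libraries, and a log2 difference of -0.80 ± 0.13 (SE; edgeR adjusted p = 3.44e-05). Cd86 was higher by 0.71 ± 0.19, Cd69 by 0.70 ± 0.19, Tnfsf9 by 0.64 ± 0.18 and Cd274 by 0.46 ± 0.15 on the log2 scale (SE; edgeR adjusted p = 0.00831, 0.00873, 0.0111 and 0.0273). In set A at 8 h the values for these 7 genes lay between -0.19 for Cd83 and 0.19 for Cd274.

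The difference between the sets was itself called for some of these genes. At 8 h the label difference in set B minus that in set A was 0.97 ± 0.19 for Cd83, 0.74 ± 0.21 for Cd80 and -0.79 ± 0.18 for Icosl on the log2 scale (SE; edgeR adjusted p = 0.00152, 0.0283 and 0.00511), 3 of 10 where 5.53% of all tested genes were called. For Cd86, Cd274, Tnfsf9 and Cd69 it was not called (edgeR adjusted p = 0.222, 0.546, 0.0614 and 0.188). The interaction at 8 h within set B was called for Icosl at -1.18 ± 0.19 and Cd83 at 0.87 ± 0.20 on the log2 scale (SE; edgeR adjusted p = 1.31e-04 and 0.00726), 2 of 10 where 4.92% of all tested genes were called. Its difference between the sets was called for Icosl alone (-1.33 ± 0.28 SE; edgeR adjusted p = 0.00631), 1 of 10 where 1.65% of all tested genes were.

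At the earlier times 1 call was made within set B. In set B controls Cd274 had 82.4, 85.7 and 98.6 CPM in KO-labelled libraries, against 51.1, 48.8 and 54.9 CPM in WT-labelled libraries, with no overlap and a log2 difference of 0.79 ± 0.15 (SE; edgeR adjusted p = 0.0011), 1 of 10 where 2.85% of all tested genes were called. Set A controls had 48.2, 47.6 and 39.6 CPM in KO-labelled libraries, against 35.0, 48.7 and 44.2 CPM in WT-labelled libraries, and these overlapped. At 2 h 0 of 10 were called in set B (2.83% of all tested genes), with 3 at an unadjusted edgeR p below 0.05. Cd69 differed between the sets in both. In controls its label difference was -1.34 ± 0.54 (SE) for set A but 1.13 ± 0.37 (SE) for set B, and the difference of these was called (2.47 ± 0.65 SE; edgeR adjusted p = 0.0381), as it was for 2 of 10 genes and 1.88% of all tested genes. At 2 h it was -0.82 ± 0.20 (SE) for set A but 0.67 ± 0.19 (SE) for set B, and again the difference was called (1.48 ± 0.28 SE; edgeR adjusted p = 0.00125), as it was for 1 of 10 genes and 2.09% of all tested genes. Cd40 showed the same in controls, at -0.51 ± 0.21 (SE) for set A but 0.62 ± 0.19 (SE) for set B (difference 1.13 ± 0.28 SE; edgeR adjusted p = 0.0251).

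**Figure D4:**
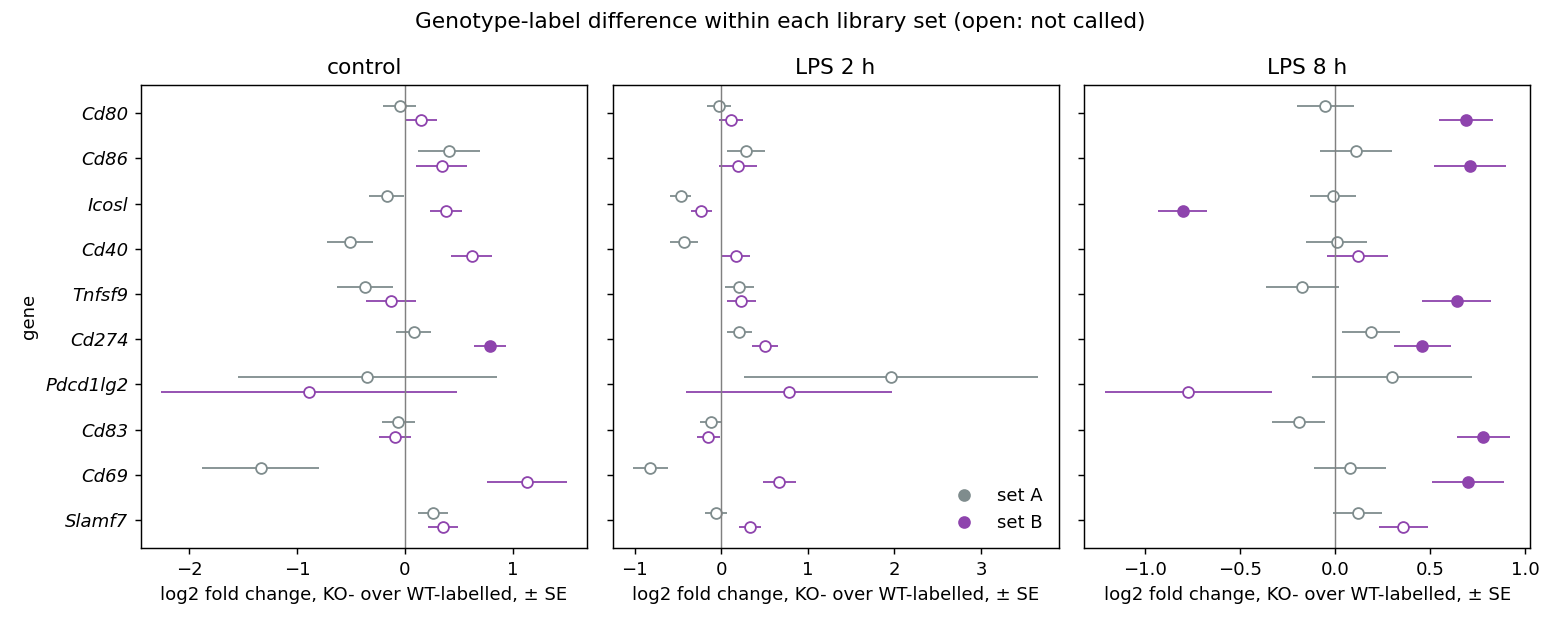
Log2 fold change of KO-labelled over WT-labelled libraries with its SE, within set A (grey, upper) and set B (purple, lower), for each gene in controls, at 2 h and at 8 h of LPS, filled where called by edgeR. Filled points appear in set B alone, for Cd274 in controls and for 7 genes at 8 h, of which Icosl lies below 0. The sets were drawn from these same counts.

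Markers of other cell types differed with the sets and, within set B, with the labels. At 8 h the sum of the 11 dendritic cell markers was 58.9 to 62.4 CPM for KO-labelled set B libraries, against 42.7 to 46.8 CPM for WT-labelled set B libraries. For set A it was 13.4 to 15.7 CPM (KO-labelled), against 14.1 to 19.9 CPM (WT-labelled). Over set B, Ccr7, a migration receptor that activated cells also express, averaged 39.8 CPM (KO-labelled) against 31.3 CPM (WT-labelled). Without Ccr7 the other 10 summed to 19.4 to 21.2 CPM for KO-labelled set B libraries, against 13 to 14.1 CPM for WT-labelled ones. Xcr1 averaged 7.79 CPM (KO-labelled) against 3.94 CPM (WT-labelled) over set B, Clec9a 2.65 CPM (KO-labelled) against 1.54 CPM (WT-labelled), Flt3 1.01 CPM (KO-labelled) against 0.264 CPM (WT-labelled) and Zbtb46 0.597 CPM (KO-labelled) against 0.790 CPM (WT-labelled), while Cd209a was at 0 in KO-labelled 8 h libraries. The 9 neutrophil markers, of which Retnlg was at 0 in KO-labelled 8 h libraries and Ly6g in WT-labelled ones, had sums over set B of 114 to 121 CPM (KO-labelled) against 196 to 207 CPM (WT-labelled). The 9 stromal markers, with Lepr at 0 in KO-labelled 8 h libraries, had sums of 35.3 to 38.1 CPM (KO-labelled) against 62.4 to 210 CPM (WT-labelled). This WT-labelled arm includes replicate 5, whose skeletal muscle markers summed to 3984 CPM. The median stromal sum of all 6 WT-labelled 8 h libraries was 66.5 CPM. Macrophage markers, none of 10 at 0, had sums of 20100 to 21200 CPM (KO-labelled) against 22000 to 23000 CPM (WT-labelled). At the earlier times the set B neutrophil sums were 89.8 to 103 CPM (KO-labelled) against 158 to 177 CPM (WT-labelled) in controls, and 185 to 194 CPM (KO-labelled) against 281 to 313 CPM (WT-labelled) at 2 h. The stromal sums were 13.6 to 17.8 CPM (KO-labelled) against 33.9 to 38.2 CPM (WT-labelled) in controls, and 18.4 to 22.4 CPM (KO-labelled) against 37.1 to 45.2 CPM (WT-labelled) at 2 h, while the dendritic cell sums overlapped at both times. The part of these differences in the results for set B, at any time, was not tested. Without the 4 libraries with muscle markers, 0 of 10 genes were again called between labels at any time.

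Genes around these ligands were read from lists drawn up with earlier results of these data known. Their counts stand beside the shares of all tested genes, which at 2 h were 18.9% higher and 16.4% lower in KO-labelled and 20.3% and 17.7% in WT-labelled libraries, and at 8 h 34.9% and 37.2% in KO-labelled and 34.2% and 37% in WT-labelled libraries. Of 10 tested costimulatory ligands other than those above, 5 rose and 1 fell at 2 h under each label, and at 8 h 6 rose and 2 fell in KO-labelled libraries and 6 rose and 3 fell in WT-labelled libraries. Their median log2 fold change was 1.10 at 2 h and 1.80 at 8 h under the KO label, and 1.24 and 1.77 under the WT label. Tnfsf15 (TL1A, a TNF family ligand of the T cell receptor DR3) led the rises, at 0.246 ± 0.148 CPM in controls, 19.7 ± 10.6 CPM at 2 h and 53.8 ± 8.46 CPM at 8 h in KO-labelled libraries, and 0.106 ± 0.0753 CPM, 23.2 ± 7.83 CPM and 53.6 ± 12.4 CPM in WT-labelled libraries at the same times (SD, n = 6 each). Tnfsf13 (APRIL, a ligand for B cells) fell at 2 h, by 0.57 in KO-labelled and by 0.84 in WT-labelled libraries on the log2 scale, and Cd24a fell at 8 h by 1.84 in KO-labelled and by 2.03 in WT-labelled libraries.

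Of 12 tested inhibitory ligands other than the PD-1 ligands, 6 rose and 0 fell at 2 h under each label (edgeR). At 8 h 7 rose and 3 fell in KO-labelled libraries, and 7 rose and 4 fell in WT-labelled libraries. Their median log2 fold change was 0.35 at 2 h and 1.84 at 8 h under the KO label, and 0.61 and 1.75 under the WT label. Cd200 (the ligand of an inhibitory receptor on myeloid cells) averaged 5.73 ± 2.12 CPM in controls, 36 ± 8.63 CPM at 2 h and 250 ± 102 CPM at 8 h in KO-labelled libraries, and 4.49 ± 1.15 CPM, 33.8 ± 4.70 CPM and 221 ± 70.3 CPM in WT-labelled libraries (SD, n = 6 each). Pvr, a ligand of TIGIT, was higher at 2 h by a log2 fold change of 2.66 ± 0.14 in KO-labelled and 2.63 ± 0.14 in WT-labelled libraries (SE). At 8 h the largest rises were those of Fgl2 (a soluble suppressor of T cells) in KO-labelled libraries, 7.94 ± 0.52, and of Tnfsf10 (TRAIL, a death ligand) in WT-labelled libraries, 8.75 ± 0.61 (log2 fold change, SE). Cd276 (B7-H3) fell by 1.83 ± 0.27 in KO-labelled and by 1.93 ± 0.28 in WT-labelled libraries at 8 h on the log2 scale (SE).

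The T cell partners of the ligands were largely absent, and 6 of 15 passed the filter. Pdcd1, Ctla4, Icos and Cd40lg, which encode the receptors for the PD-1 ligands, the B7 ligands and ICOSL and the ligand of CD40, were among the 9 that did not. Of the 6, 0 were called in KO-labelled and 1 (Lag3, higher by a log2 fold change of 1.47 ± 0.47 SE) in WT-labelled libraries at 2 h, and at 8 h 2 were higher and 2 lower under each label, with a median log2 fold change at 8 h of 0.28 under the KO label and -0.16 under the WT label. Cd28 itself was read in these macrophages, at 136 ± 54.1 CPM in controls, 107 ± 54.8 CPM at 2 h and 11.2 ± 7.08 CPM at 8 h in KO-labelled libraries, and 127 ± 25.5 CPM, 103 ± 40.1 CPM and 8.88 ± 4.15 CPM in WT-labelled libraries (SD, n = 6 each). Its log2 fold change at 8 h was -3.61 ± 0.39 in KO-labelled and -3.87 ± 0.40 in WT-labelled libraries (SE). Btla, an inhibitory receptor, was higher at 8 h by 4.38 ± 0.93 in KO-labelled and 4.40 ± 0.94 in WT-labelled libraries (log2 fold change, SE). Its 8 h level was 4.12 ± 3.92 CPM under the KO label and 3.96 ± 3.39 CPM under the WT label (SD, n = 6 each).

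Of 13 genes listed for CD40 signalling, 12 were called higher and 1 lower at 2 h under each label. Whether CD40 was engaged was not tested, and Cd40lg did not pass the filter on low counts. At 8 h 10 were higher and 1 lower in KO-labelled libraries, and 11 were higher and 0 lower in WT-labelled ones. Their median log2 fold change was 0.99 at 2 h and 1.64 at 8 h under the KO label, and 1.13 and 1.71 under the WT label. Traf1, an adaptor of TNF receptors, averaged 6.34 ± 2.81 CPM in controls, 159 ± 79.2 CPM at 2 h and 731 ± 183 CPM at 8 h in KO-labelled libraries, and 4.55 ± 1.76 CPM, 158 ± 47.7 CPM and 756 ± 189 CPM in WT-labelled libraries (SD, n = 6 each). Tnfaip3 (A20, a brake on NF-kB) had the largest 2 h rise in KO-labelled libraries, a log2 fold change of 4.68, beside 4.60 in WT-labelled ones. Map3k14 (NIK, the kinase of the noncanonical NF-kB pathway) was the gene that fell at 2 h, by 0.46 ± 0.12 in KO-labelled and by 0.67 ± 0.12 in WT-labelled libraries on the log2 scale (SE). The 15 genes of interferon signalling towards Cd274 rose in 11 cases at 2 h in KO-labelled and 12 in WT-labelled libraries, with 0 lower, and at 8 h 14 rose and 1 fell under each label. Their median log2 fold change at 8 h was 2.86 under the KO label and 2.79 under the WT label. Socs3, a feedback inhibitor, led at 8 h with a log2 fold change of 8.57 ± 0.31 in KO-labelled and 8.68 ± 0.32 in WT-labelled libraries (SE). Ifngr1, a chain of the interferon gamma receptor, was the gene that fell, by 1.15 ± 0.14 in KO-labelled and by 1.02 ± 0.14 in WT-labelled libraries on the log2 scale (SE).

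Among 9 tested SLAM family and adaptor genes other than Slamf7, 3 rose and 1 fell at 2 h, and 6 rose and 2 fell at 8 h, under each label. Their median log2 fold change at 8 h was 1.62 under the KO label and 1.85 under the WT label. Slamf8 averaged 5.55 ± 1.40 CPM in controls, 12.9 ± 3.05 CPM at 2 h and 246 ± 103 CPM at 8 h in KO-labelled libraries, and 5.21 ± 1.55 CPM, 12.8 ± 6.61 CPM and 257 ± 81.3 CPM in WT-labelled libraries (SD, n = 6 each). Slamf1 rose at 8 h by a log2 fold change of 7.40 ± 0.66 in KO-labelled and 7.44 ± 0.67 in WT-labelled libraries (SE). Its controls were near the floor, averaging 0.249 CPM (KO-labelled) and 0.218 CPM (WT-labelled). At 8 h its libraries spread widely, from 5.13 to 72.6 CPM (KO-labelled) and from 4.98 to 64.5 CPM (WT-labelled). Sh2d1b1 (EAT-2, an adaptor of SLAM receptors) fell by 3.08 ± 0.41 in KO-labelled and by 3.35 ± 0.43 in WT-labelled libraries at 8 h on the log2 scale (SE).

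A list of 10 genes tied to the surface levels of these proteins or of their partners was also read. Of the 10, 2 rose and 3 fell at 2 h, and 4 rose and 4 fell at 8 h, under each label. At 8 h this was close to the shares of all tested genes, with medians at 8 h of -0.03 under the KO label and -0.02 under the WT label. March1, a ubiquitin ligase that removes CD86 from the surface, changed direction between the times. It averaged 26.1 ± 13.1 CPM in controls, 10.2 ± 2.99 CPM at 2 h and 172 ± 50.8 CPM at 8 h in KO-labelled libraries, and 20.7 ± 7.96 CPM, 8.50 ± 4.42 CPM and 152 ± 69.7 CPM in WT-labelled libraries (SD, n = 6 each). The protease gene Adam17 was higher at 2 h by a log2 fold change of 1.23 ± 0.07 in KO-labelled and 1.22 ± 0.07 in WT-labelled libraries (SE). S1pr1, the receptor that CD69 binds, fell at 8 h by 3.14 ± 0.33 in KO-labelled and by 3.15 ± 0.33 in WT-labelled libraries on the log2 scale (SE). Between the genotype labels 0 of the 74 tested genes of these lists were called by edgeR at any time. At an unadjusted p below 0.05 there were 6 in controls, 4 at 2 h and 4 at 8 h, and DESeq2 called 2, 0 and 0.

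The genes whose levels were most like those of each ligand gene over the 36 libraries, by Pearson's r of log2 CPM among 9269 genes, are given as a description, since the 36 libraries share 6 groups. For Slamf7 they were Cybb (r = 0.996), which encodes a subunit of the phagocyte oxidase, Slc31a2 (0.995) and Sp140 (0.994). For Cd40 they were Gsap (0.995), Bcl2a1a (0.991) and Sod2 (0.991), and for Cd274 Gch1 (0.993), Il15ra (0.992) and Gbp2 (0.992). Cd69 was most like Tagap (0.986), Slc31a2 (0.985) and Cmpk2 (0.985), and Cd86 most like Lipg (0.987), Aoah (0.986) and Slc31a1 (0.986). The early genes had other neighbours. Cd83 was most like Nfkbiz (0.987), Tlr2 (0.986) and Prdm1 (0.982), Tnfsf9 like Mul1 (0.983), Arl5b (0.98) and Cdc42ep4 (0.979), and Icosl like Csf1 (0.983), Adamts4 (0.975) and Tnf (0.973). The lowest values were those of Pdcd1lg2, with Milr1 (0.968) and Phf11c (0.964), and of Cd80, with Csrnp1 (0.921), Itpkb (0.920) and Frs2 (0.919). Among the 10 genes themselves r was 0.99 for Cd274 with Slamf7 and 0.94 for Cd83 with both Tnfsf9 and Icosl, against -0.02 for Pdcd1lg2 with Tnfsf9. After each group's mean was subtracted, r was 0.60 for Cd274 with Slamf7, 0.08 for Cd83 with Tnfsf9 and -0.46 for Cd83 with Icosl.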

How the data were processed

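Raw counts of reads per gene were deposited, 1 file per library, made with HTSeq on mm10 per the submitters' processing notes. No aligner, annotation or strand use is stated in the sources used here, so reads of overlapping antisense genes cannot be told apart. Of 54232 Ensembl identifiers, 54165 were found in GENCODE release M21, used for symbols, positions and exon lengths, and 0 rows held unassigned reads. Library totals, 8953489 to 18482551 counts, limit the precision of scarce genes.

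The tests used edgeR 4.0.16 under R 4.3.3: filterByExpr on the 6 groups (12957 genes), TMM scaling, 1 mean per group over all 36 libraries, the quasi-likelihood F test and Benjamini-Hochberg adjustment over all genes, called below 0.05. The fit was tried on simulated data with known changes, for WT-labelled libraries at 2 h against control. The simulated libraries had no sets, so this does not cover the label, interaction or set comparisons. Standard errors come from the F statistic. CPM are relative to TMM-scaled totals. Replicates were numbered in accession order and pair nothing. Pairs of replicates differed by more than sampling noise (lowest mean chi-square per gene 2.08), so none were merged. After group means were removed, principal component 1 of log2 CPM held 32.84% of the variance, and its sign gave sets A and B with 3 libraries of each in every group. Promoters came from a RefSeq table on GRCm38.p6.

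The 10 genes, the lists and the tests were chosen with earlier results of these data known. Named genes are the 10, Nos1, the 3 genes most like each (1 of these is not reported here) and, from each list, the called gene with the largest change in each direction. Overlapping antisense genes, the 4 untested T cell partners given and the single cell type markers were named after their values were seen. Alternatives were RLE size factors, library totals alone, no count filter, DESeq2 1.42.0, a term for the set, each set alone, dropping the 6 libraries with BMDM in their genotype label or the 4 with muscle markers, and leaving out each library. The fit with a mean for each group and set was added after seeing the data, with sets drawn from the tested counts.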

Additional observations from a re-analysis of the deposited data

Results flagged for a closer look

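In each group of 6 libraries, the highest or lowest value of a gene was compared with its nearest neighbour by Dixon's test, which chance passes in about 1 of 20 groups. Of 60 groups tested, 4 held a library that stood apart. Slamf7 was lowest in KO-labelled control replicate 2, at 57.9 CPM, and Cd83 was lowest in WT-labelled 2 h replicate 2, at 697 CPM. Pdcd1lg2 was highest in KO-labelled control replicate 2, at 0.164 CPM, which is 2 counts, and lowest in WT-labelled control replicate 3, at 0 CPM. No cause was tested for these values.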

How the results depend on the processing

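For the 10 genes in 11 comparisons, 1155 of 1209 values under alternatives other than leaving out a library kept their direction and their side of the threshold, as did 3934 of 3960 with a library left out. Reversed were Cd80 at 8 h against 2 h in KO-labelled libraries, 0.31 in set B alone (edgeR adjusted p = 0.00125), and Icosl in the same comparison, 0.34 in set A alone (0.0833) and 0.32 in set A of the fit with a mean for each group and set (0.0247). Cd80 in that comparison was called lower with library totals alone (-0.59) and in set A alone (-0.58). Icosl at 8 h against 2 h crossed the threshold in many settings, in KO-labelled libraries at -0.40 without 8 h replicate 4 or 5 (edgeR adjusted p = 0.123 and 0.124), in WT-labelled ones at -0.59 without 2 h replicate 2 (0.0201). The cause was not tested.

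Counts of genes called between labels moved most, and were highest in set B alone, whose library pairs differed least (median over pairs of the mean chi-square per gene 3.28, against 14.7 in set A and 48.4 across sets). In controls 19 genes became 86 with DESeq2, 30 with the set as a term, 7 in set A alone and 1362 in set B alone. At 2 h 3 became 5 with DESeq2, 9 with the set as a term, 9 in set A and 1363 in set B. At 8 h 13 became 96 with DESeq2, 151 with the set as a term, 6 in set A, 4084 in set B, 39 with library totals alone, 8 without a count filter and 26 without the BMDM-labelled libraries. The interaction at 2 h had 0 genes and 133 in set B alone, and at 8 h 0 genes, 4 with DESeq2, 3 with the set as a term and 2154 in set B alone. Of the 10 genes, set B alone called 6 in controls, 5 at 2 h, 8 at 8 h and, for the interaction, 1 at 2 h and 6 at 8 h. These stand beside the 1362, 1363, 4084, 133 and 2154 genes called there. They are not read as a result about the 10 genes. Leaving out a library gave 3 (KO-labelled control replicates 3 or 5, WT-labelled control replicates 2, 4 or 5) to 73 genes (KO-labelled control replicate 2) in controls, 2 to 4 at 2 h, 2 (WT-labelled 8 h replicate 5) to 121 (WT-labelled 8 h replicate 2) at 8 h, and 0 to 1 for the interaction at 8 h (1 without KO-labelled 8 h replicate 2 or control replicate 6). With library totals alone, 7278 genes under the KO label (4568 with TMM) and 7618 under the WT label (4915) were called at 2 h, and lowered the median of all genes to -0.31 at 2 h and -0.88 at 8 h in KO-labelled libraries and to -0.32 and -0.83 in WT-labelled ones. The share of calls that were higher fell with it to 20.34% at 2 h and 19.5% at 8 h in KO-labelled libraries (53.52% and 48.46% with TMM) and to 20.71% and 19.87% in WT-labelled ones (53.43% and 48.03%), so directions are relative to TMM. No paired analysis was possible because the labels give no replicate numbers or animals.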
